A study of Sus scrofa with 92 samples.

Results

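The liver transcriptome at 2 h of full resuscitation (FR2) was compared between pigs that died and pigs that lived after hemorrhagic shock and polytrauma. The 23 FR2 libraries, of 92 libraries in the series, came from 5 animals whose titles carry the letter for death and 18 animals whose titles carry the letter for life, with 1 library per animal. All were young male Yorkshire-Landrace pigs given the same blunt chest injury, splenectomy, liver crush, bleeding, limited resuscitation and full resuscitation. Before induction the carbohydrate prefed (CPF) animals had received an oral bolus of corn syrup, and the fasted (FS) animals had not. Among the animals that died, 3 were FS (animals 2, 16 and 20) and 2 were CPF (animals 7 and 8). Among those that lived, 15 were FS and 3 were CPF (animals 3, 13 and 18). Animals are numbered from 1 to 23 in ascending order of the number in their titles. Every animal that died also had a library at 20 h, and the sources used here give neither the time nor the cause of death.

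After blood loss and reperfusion, liver cells switch on immediate early genes, which code for transcription factors and phosphatases. These genes are transcribed within minutes of stress without prior protein synthesis. Cytokines then drive hepatocytes to make acute phase proteins such as fibrinogen and C-reactive protein. The same cells make glucose, fatty acids and cholesterol under the control of insulin, glucagon, glucocorticoids and the SREBP transcription factors. Levels below are CPM, counts scaled to a common library size, after TMM scaling over the FR2 libraries. In such bulk samples, fewer cells of a type and less RNA per cell cannot be told apart.

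FR2 library totals ran from 9153688 to 12184280 counts in the animals that died and from 8260616 to 13839006 in those that lived. The difference in mean log2 total, died minus lived, was -0.13 (exact 2-sided permutation test over 33649 splits, p = 0.152). The FR2 library of animal 11 (FS, lived) stood apart. Among 6757 genes with a median of at least 100 counts over the series, 662 had no count in it, against 0 or 1 in each of the other FR2 libraries. In all, 905 genes with at least 10 counts in each of the other 22 libraries were at 0 there, all 13 mitochondrial protein genes included, and 898 of them were also at 0 in the 8 h library of the same animal. The zeros are read here as genes not counted, not as low levels. Their levels in lived animals are given over the other 17 libraries, and counts of calls and results that change are also given without animal 11. Among the remaining 22 libraries the first principal component (18.8% of the variance) set the lived FS animals 10, 17, 19 and 21 apart, at 55.2 to 70.2 against -30.1 to 2.6 in the others.

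No gene passed the thresholds used by the study (an adjusted p below 0.05 with a log2 fold change of 1 or more in size) in edgeR's quasi-likelihood test with a term for fed status, which is 0% of 11892 genes tested. The smallest adjusted p was 0.399. An unadjusted p under 0.05 was reached by 655 genes (5.51%). Of these, 313 (2.63%) were higher and 342 (2.88%) lower in the animals that died. Without animal 11, 0 of 11848 genes passed, the smallest adjusted p was 0.276 and 742 genes (6.26%) had an unadjusted p under 0.05. Without animals 10, 11, 17, 19 and 21, 0 of 11408 passed and the smallest adjusted p was 0.292. Other tests run on the same 23 libraries called a few genes, all of them higher in the animals that died. DESeq2 called 3 (KLF10, MYC and IER3), the likelihood ratio test of edgeR on tagwise dispersions called 9, and limma voom with quality weights called 19. The methods of the paper name edgeR with tagwise dispersions, which the likelihood ratio test used here, and do not name the quasi-likelihood test. The genes described next, which carry the smallest p-values in each direction, are therefore described as values and did not pass the main test.

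**Figure D1:**
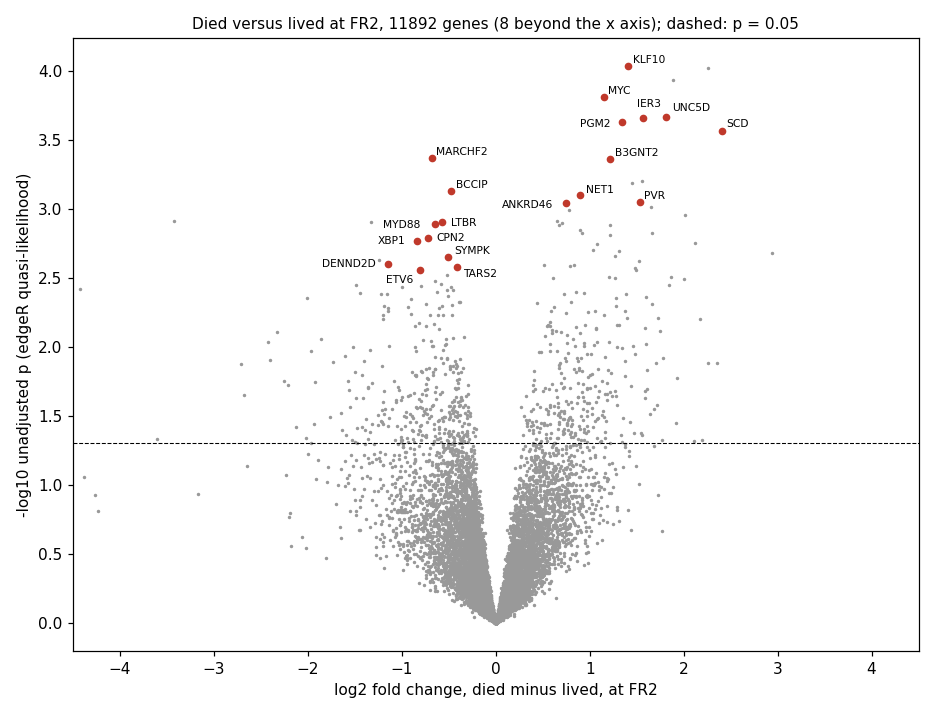
Difference between animals that died and lived at FR2 for each gene tested, as log2 fold change (x axis) against -log10 of the unadjusted p (y axis). Named points are the 10 genes higher and the 10 lower with the smallest p that have a symbol. KLF10 has the smallest p of the named genes, and the 10 named lower genes have smaller fold changes than most of the named higher ones.

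KLF10 (ENSSSCG00000027480), an early growth response transcription factor induced by TGF-beta and by nutrient signals, was at 66.1, 64.7 and 199 CPM in the FS animals 2, 16 and 20 that died and at 231 and 215 CPM in the CPF animals 7 and 8 that died. In the 18 animals that lived it ran from 19.1 to 88.3 CPM with a median of 46.8. Animals 7, 8 and 20 were thus above every animal that lived, and animals 2 and 16 lay inside the lived range. The log2 fold change was 1.41 ± 0.30 (SE; adjusted p = 0.399, edgeR). MYC (ENSSSCG00000005965), the proto-oncogene and growth regulator, showed the same division. It was at 107, 116 and 335 CPM in animals 2, 16 and 20 and at 329 and 290 CPM in animals 7 and 8, against 50.3 to 155 CPM (median 93.2) in the lived animals, a log2 fold change of 1.15 ± 0.26 (adjusted p = 0.399, edgeR).

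IER3 (ENSSSCG00000027607) is an immediate early gene that acts on cell survival. Its levels were 150, 59.0 and 97.8 CPM in animals 2, 16 and 20, and 300.2 and 135 CPM in animals 7 and 8. The lived animals ran from 13.3 to 128 CPM with a median of 42.7. All 5 died animals were above that median and 3 were above the whole lived range, with a log2 fold change of 1.57 ± 0.36 (adjusted p = 0.399, edgeR). PVR, the poliovirus receptor and a ligand of immune cell receptors, was low throughout. It was at 9.56, 4.79 and 5.76 CPM in animals 2, 16 and 20, at 5.89 and 5.12 CPM in animals 7 and 8, and at 0.340 to 7.72 CPM (median 1.91) in those that lived. Only 1 lived animal reached the lowest died value or above, and the log2 fold change was 1.53 ± 0.40 (adjusted p = 0.577, edgeR).

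SCD, the stearoyl-CoA desaturase that makes monounsaturated fatty acids, had the largest fold change among the named higher genes and also the widest spread. Animals 7, 8 and 20 were at 2191, 942 and 2398 CPM, and animals 2 and 16 were at 59.2 and 139 CPM. The lived animals ran from 20.7 to 726 CPM (median 144), and the 2 highest of them, at 667 and 726 CPM, were CPF animals. The log2 fold change was 2.41 ± 0.56 (adjusted p = 0.402, edgeR). PGM2, a phosphomutase of pentose and glucose phosphates, was at 101, 114 and 376 CPM in animals 2, 16 and 20 and at 249 and 103 CPM in animals 7 and 8. Lived animals had 27.4 to 140 CPM (median 71.6), and the log2 fold change was 1.34 ± 0.31 (adjusted p = 0.399, edgeR).

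The remaining named higher genes had low to moderate levels. UNC5D, a netrin receptor, was at 1.02 to 5.32 CPM in the animals that died and at 0.0982 to 1.83 CPM in those that lived, a log2 fold change of 1.81 ± 0.42. B3GNT2, which elongates poly-N-acetyllactosamine chains on glycans, was at 38.2 CPM in animal 7 and between 15.7 and 19.9 CPM in the other 4, against a lived median of 8.97 CPM (log2 fold change 1.22 ± 0.30). NET1, an exchange factor for the GTPase RhoA, had medians of 57.9 CPM in died and 32.3 CPM in lived animals (0.89 ± 0.23 on the log2 scale). ANKRD46, an ankyrin repeat protein, had medians of 27.8 and 16.4 CPM (0.75 ± 0.20). Adjusted p-values of these 4 genes lay between 0.399 and 0.577 (edgeR).

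The named lower genes differed by less but varied less within groups. MARCHF2 (ENSSSCG00000013601), a membrane-bound ubiquitin ligase, was at 7.53, 8.14 and 8.57 CPM in animals 2, 16 and 20, at 9.18 and 8.56 CPM in animals 7 and 8, and at 9.81 to 19.3 CPM (median 13.1) in all 18 lived animals. The groups did not overlap, and the log2 fold change was -0.68 ± 0.17 (adjusted p = 0.519, edgeR). MYD88 (ENSSSCG00000011251), the adaptor of Toll-like and interleukin 1 receptors, was at 36.1, 34.99 and 34.99 CPM in animals 2, 16 and 20 and at 36.4 and 33.1 CPM in animals 7 and 8. Lived animals had 38.4 to 92.1 CPM (median 53.3), again without overlap, and the log2 fold change was -0.65 ± 0.18 (adjusted p = 0.577, edgeR). Of 11892 genes, 3 (0.0252%) had all 5 died animals below the 17 lived animals other than animal 11: these 2 and ENSSSCG00000017394, a gene with no symbol in the tables used, which is named because its values were apart (6.57 to 9.15 CPM in died against 9.58 to 29.2 CPM in all 18 lived). No gene (0%) had all 5 died animals above all 18 lived animals.

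LTBR, the lymphotoxin beta receptor, was at 66.8, 56.8 and 61.2 CPM in animals 2, 16 and 20 and at 63.6 and 50.5 CPM in animals 7 and 8. Its lived range was 61.8 to 129 CPM (median 84.7), so the groups overlapped at the edge, and the log2 fold change was -0.57 ± 0.16 (adjusted p = 0.577, edgeR). XBP1, a transcription factor that drives secretory pathway genes under endoplasmic reticulum stress, was at 161, 248 and 201 CPM in animals 2, 16 and 20 and at 213 and 198 CPM in animals 7 and 8. The lived range was 197 to 646 CPM (median 333), and 15 of 18 lived animals were above the highest died value (log2 fold change -0.84 ± 0.24, adjusted p = 0.605, edgeR). The other lower genes were CPN2, a subunit of the plasma carboxypeptidase that inactivates complement peptides (-0.72 ± 0.20 on the log2 scale), ETV6, an ETS family repressor (-0.81 ± 0.24), DENND2D, a Rab exchange factor (-1.15 ± 0.34), BCCIP, a BRCA2-binding protein (-0.47 ± 0.12), SYMPK, a scaffold of mRNA 3' end processing (-0.51 ± 0.15), and TARS2, the mitochondrial threonyl-tRNA synthetase (-0.41 ± 0.12). Their adjusted p-values ran from 0.577 to 0.656 (edgeR). DENND2D carries a second identifier, which can share reads with the one given here.

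**Figure D2:**
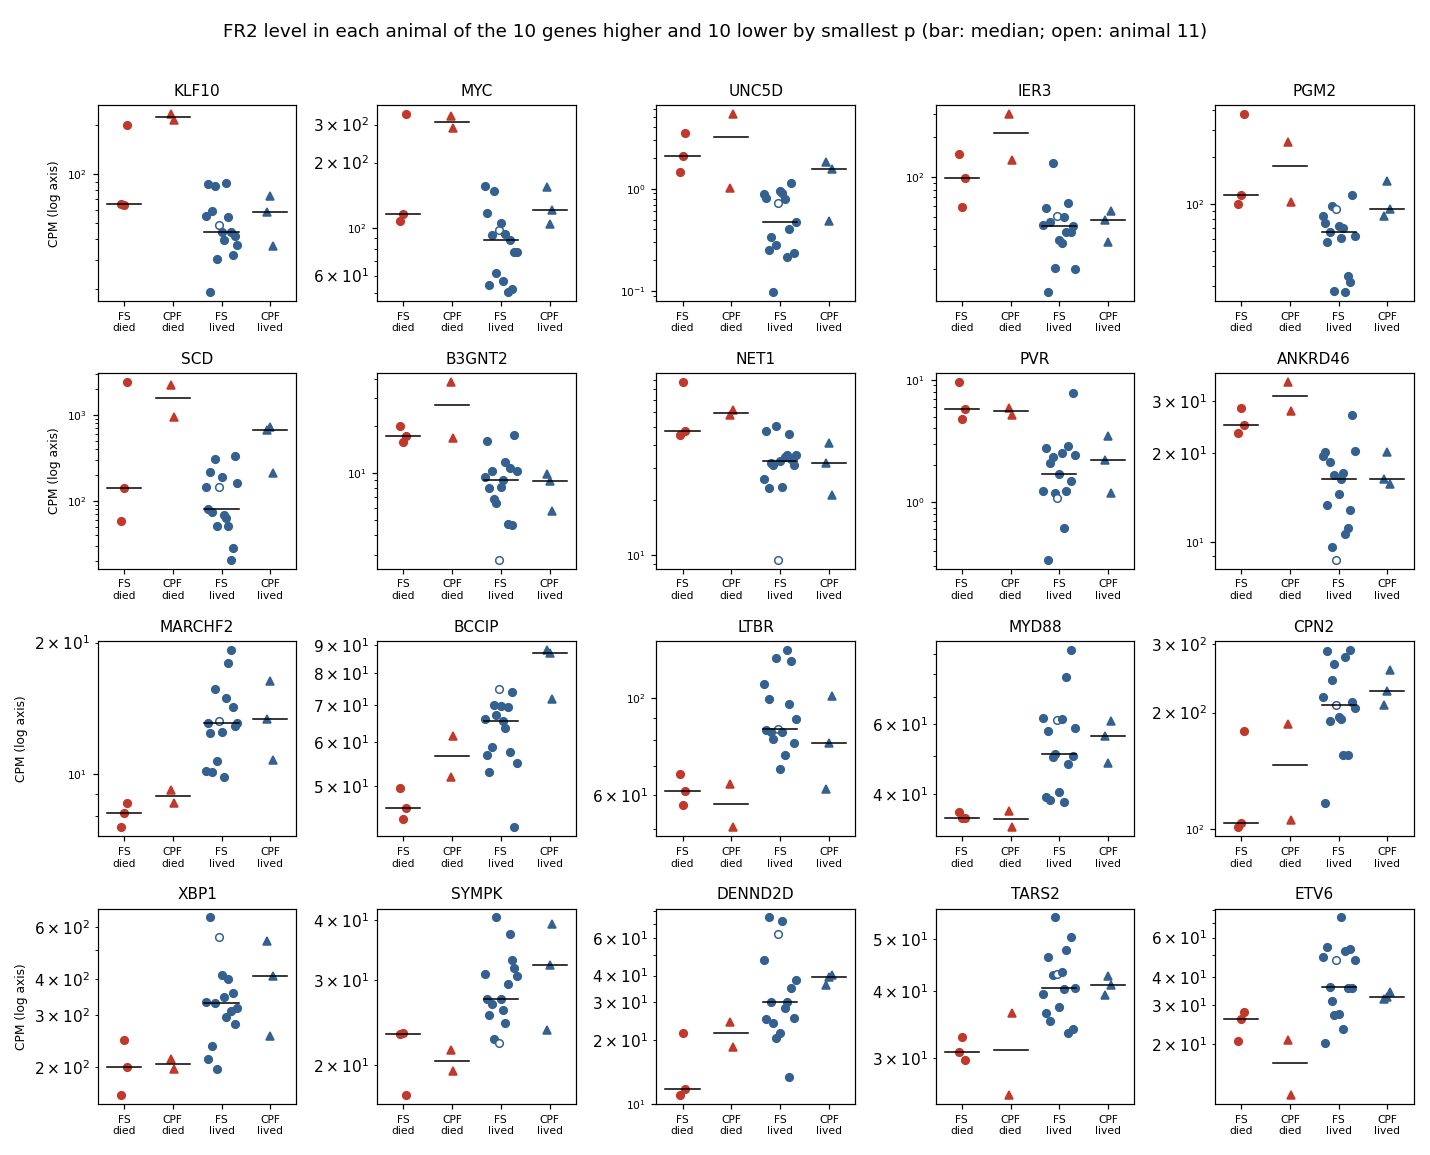
CPM at FR2 (log axis) of the 10 genes higher (upper 2 rows) and the 10 lower (lower 2 rows) in animals that died, 1 point per animal, with the median of each group as a bar and animal 11 as an open circle. KLF10, MYC and SCD divide the FS animals that died into 1 high and 2 lower animals, and MARCHF2 and MYD88 separate the 5 died animals from all 18 lived animals.

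Groups of genes were described by counts of tested members and by their median log2 fold change, beside a median of -0.02 over all 11892 genes and shares of 2.63% higher and 2.88% lower at an unadjusted p under 0.05. The immediate early list had 19 tested members, and all 19 were higher in the animals that died, with a median log2 fold change of 1.07. Of these, 6 had an unadjusted p under 0.05 (DUSP1, IER2, IER3, KLF6, MYC and EGR2), or 8 without animal 11 (EGR1 and IER5 added), and 0 passed the adjusted test. IER3 was the highest member and JUNB, a component of AP-1, the lowest (0.33). FOS, the partner of the JUN proteins in AP-1, was at 91.7, 77.9 and 16.1 CPM in animals 2, 16 and 20 and at 630 and 915 CPM in animals 7 and 8, against 3.17 to 191 CPM in those that lived (log2 fold change 1.31 ± 0.95). EGR1, a zinc finger factor induced by growth signals, was at 80.1, 75.7 and 54.1 CPM in animals 2, 16 and 20 and at 303 and 449 CPM in animals 7 and 8 (lived range 14.7 to 143 CPM). The high values of both genes were those of the CPF animals that died. KLF6, another zinc finger factor, was between 249 and 454 CPM in the 5 died animals and between 28.2 and 295 CPM in the lived ones.

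To place each animal, the median over a list's members of the log2 ratio to the lived median was taken (0.5 CPM added to both). On this scale the immediate early list was at 0.98, 0.65 and 0.40 in animals 2, 16 and 20 and at 2.18 and 1.71 in animals 7 and 8, while 17 lived animals ran from -1.72 to 0.98. In FS animals alone (3 died, 15 lived) the list's median log2 fold change was 0.67, with 16 of 19 members higher, and JUNB reversed its direction (-0.16). In CPF animals alone (2 died, 3 lived) it was 2.10, with all 19 members higher.

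**Figure D3:**
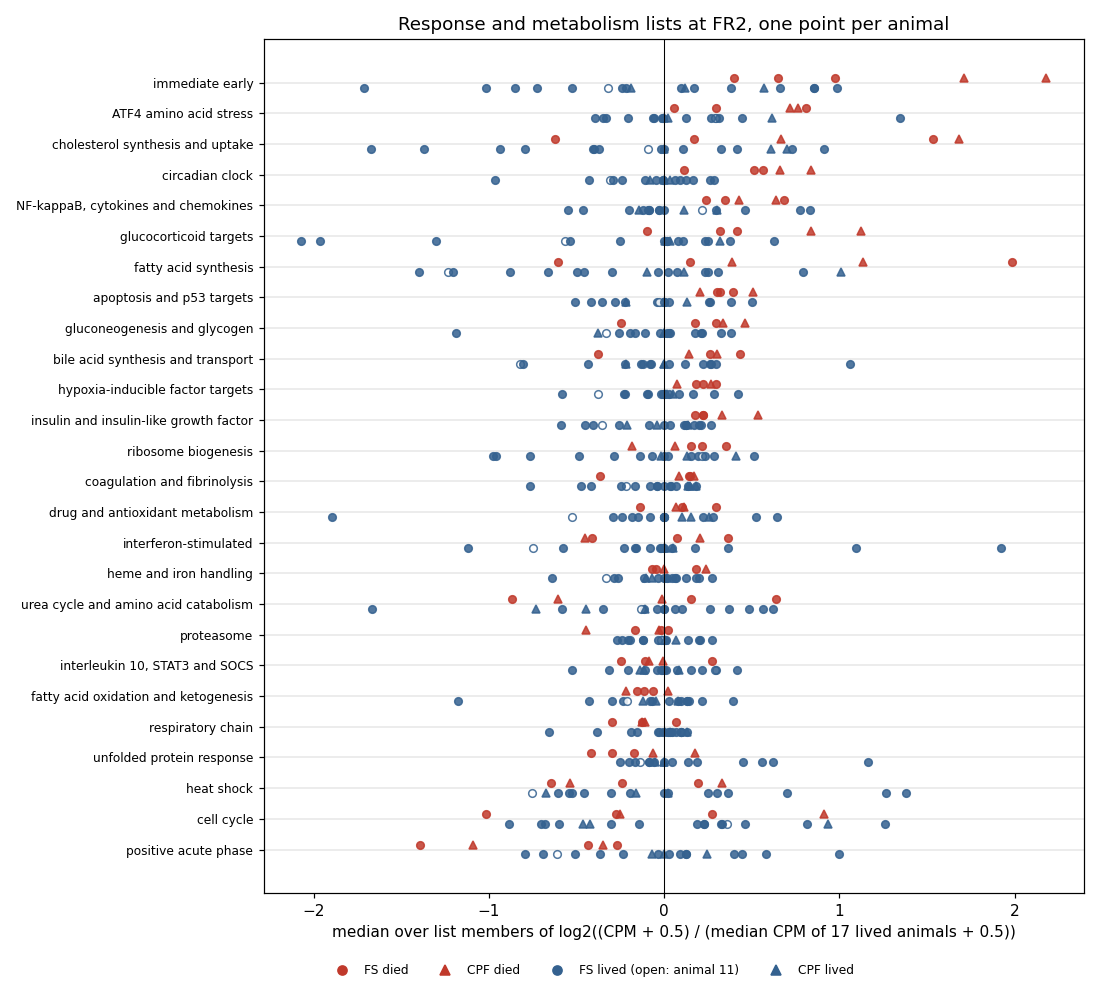
Each point is 1 animal at FR2, placed by the median over a list's tested members of the log2 ratio to the median of the 17 lived animals other than animal 11 (x axis), for 26 lists (y axis). In the immediate early list the 5 died animals lie between 0.40 and 2.18, and in the positive acute phase list between -1.40 and -0.27.

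Genes of lipid synthesis were higher in the estimate. Of 12 tested fatty acid synthesis genes, 11 were higher (median 0.85), 6 with an unadjusted p under 0.05 (SCD, FASN, ACSS2, ACLY, ELOVL6 and MLXIPL), and 0 passed the adjusted test. DGAT1, which makes triglyceride, was the lowest at -0.04. FASN, fatty acid synthase, was at 31.0, 195 and 460 CPM in animals 2, 16 and 20 and at 768 and 229 CPM in animals 7 and 8, against 8.95 to 331 CPM (median 48.2) in lived animals (log2 fold change 1.93 ± 0.75). ACSS2, which activates acetate, reached 429 CPM in animal 20 and 168 CPM in animal 7, above the lived maximum of 112 CPM, and was at 24.3 CPM in animal 2. All 17 tested members of the cholesterol synthesis and uptake list were higher (median 0.72), 5 with an unadjusted p under 0.05 (SQLE and FDFT1 among them). IDI1, which makes the isoprene building block, had the highest value (1.47, from a near-silent identifier) and DHCR7, the last enzyme of the pathway, the lowest (0.03). SQLE and FDFT1 act at the squalene steps of the pathway.

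Animal 2 went the other way in both lipid lists. Its list values were -0.60 for fatty acid synthesis and -0.62 for cholesterol synthesis, against 1.98 and 1.54 in animal 20 and 1.14 and 1.68 in animal 7. With each animal left out in turn, the median log2 fold change of the cholesterol list ran from 0.23 to 1.00 and that of the fatty acid list from 0.32 to 1.09, the lowest of both without animal 20. In the fatty acid oxidation and ketogenesis list, 14 of 22 members were lower (median -0.03). HADHA, a subunit of the mitochondrial trifunctional protein, had medians of 157 CPM in died and 250 CPM in lived animals (log2 fold change -0.60 ± 0.21), and SLC25A20, the carnitine carrier, 22.2 and 39.7 CPM (-0.81 ± 0.27). FGF21, a fasting hormone of the liver, was the highest member (1.64 ± 0.71): it was at 34.5, 23.8 and 38.0 CPM in animals 7, 8 and 20, and at 0.846 and 1.99 CPM in animals 2 and 16. ACADVL, the lowest at -2.68, was nearly silent in this annotation, with medians of 0.453 and 0.587 CPM.

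Acute phase genes were lower in the estimate. All 15 tested identifiers of the positive acute phase list were lower in the animals that died (median -0.78). At an unadjusted p under 0.05 there were 6 lower genes with animal 11 (FGB, FGG, LBP, LCN2, CRP and A2M) and 9 without it, the other identifiers of FGA and FGB added. The FGB identifiers and 1 of FGA were not counted in animal 11. None passed the adjusted test. FGG, the fibrinogen gamma chain, was at 9050, 21070 and 19350 CPM in animals 2, 16 and 20 and at 17380 and 13200 CPM in animals 7 and 8, against a lived range of 13192 to 50571 CPM (median 24974; log2 fold change -0.73 ± 0.29). Both groups overlapped, with 12 of 18 lived animals above the highest died value. FGB, the beta chain, has 2 identifiers. For ENSSSCG00000023883 the died animals were at 204, 490 and 352 CPM (animals 2, 16 and 20) and 244 and 244 CPM (animals 7 and 8), and the 17 lived animals were at 324 to 4977 CPM (median 942), a log2 fold change of -1.94 with animal 11 and -2.004 without it. The identifiers can share reads, and so can those of FGA and CRP.

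CRP (ENSSSCG00000006403), C-reactive protein, was at 872, 944 and 2196 CPM in animals 2, 16 and 20 and at 786 and 698 CPM in animals 7 and 8, against 727 to 4075 CPM (median 2526) in lived animals (log2 fold change -1.19 ± 0.39, adjusted p = 0.662, edgeR). LBP, which carries bacterial lipopolysaccharide to its receptor, was at 64.4 to 264 CPM in died animals and had a lived median of 459 CPM, with 15 of 18 lived animals above the highest died value. HPX, the heme scavenger hemopexin, had the smallest difference of the list (-0.01, or -0.08 without animal 11, in which it was not counted), with a direction that turned under several alternatives. ALB, serum albumin, had medians of 92606 CPM in died and 90636 CPM in lived animals.

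Inflammatory signal genes varied in both directions. In the NF-kappaB, cytokine and chemokine list 20 of 25 identifiers were higher (median 0.43), 3 with an unadjusted p under 0.05 (CXCL2, SELE and TNFAIP3), and MYD88 was the 1 lower member at that level. Without animal 11, in which 5 members were not counted, 6 higher members reached that level (BIRC3, CCL3L1 and VCAM1 added). CXCL2, a neutrophil chemoattractant, was at 2.54, 3.71 and 1.44 CPM in animals 2, 16 and 20 and at 10.3 and 15.1 CPM in animals 7 and 8, against 0.0704 to 2.75 CPM in lived animals (log2 fold change 2.12 ± 0.60). SELE, the endothelial adhesion molecule E-selectin, was the highest member (2.35 ± 0.88) at 0.240 to 4.73 CPM in died and 0 to 1.46 CPM in lived animals. TLR2 was the lowest (-0.66, or -0.73 without animal 11, where it was not counted). TNFAIP3, the feedback inhibitor of NF-kappaB also called A20, had medians of 16.6 and 8.999 CPM. Of the neutrophil markers, 6 of 8 tested were higher in the estimate (median 0.53, or 0.27 without animal 7), 1 with an unadjusted p under 0.05, and the summed level was 73.2 to 212 CPM (median 190) in died and 29.9 to 225 CPM (median 108) in 17 lived animals. ARG2 was the most abundant of these markers and gave the larger part of the median sum. Its medians were 113 CPM in died and 73.4 CPM in 17 lived animals (log2 fold change 0.44 ± 0.45). MMP9, a gelatinase stored in neutrophil granules, was at 0.641 to 3.40 CPM against 0 to 1.08 CPM (log2 fold change 1.66 ± 0.44). S100A9, a calcium-binding protein of granulocytes, was at 4.57 to 42.5 CPM against 0.915 to 19.9 CPM (1.06 ± 0.58). ITGAM, an integrin subunit of myeloid cells, was the lowest (-0.64), at 0.591 to 1.12 CPM in died and 0.475 to 2.88 CPM in 17 lived animals. The part of these markers in the result was not tested. The interferon-stimulated list had 13 of 17 members lower (median -0.28, or -0.11 without animal 2 and -0.13 without animal 10), with IFIT5 the highest (0.53) and CMPK2 the lowest (-0.68). CMPK2 was at 80.8 and 67.3 CPM in the lived animals 10 and 21 and at most 23.5 CPM in the other lived animals. In the interleukin 10, STAT3 and SOCS list 10 of 16 were lower (median -0.06, and -0.16 to -0.01 with each animal left out), from BCL3 (-0.61) to SOCS2 (0.37).

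Among genes of glucose supply and hormone response, 13 of 17 gluconeogenesis and glycogen genes were higher (median 0.33, or 0.21 without animal 8 and 0.18 without animal 20). PPP1R3C, which targets a phosphatase to glycogen, was the highest at 1.37 ± 0.53: it was at 33.1, 95.8 and 691 CPM in animals 2, 16 and 20 and at 230 and 72.5 CPM in animals 7 and 8, and without animal 20 its fold change turned to -0.10. CREB3L3, a liver transcription factor of the fasting and acute phase responses, was the lowest at -1.16 ± 0.37, with 15 of 18 lived animals above the highest died value of 203 CPM. The lived animals 10, 17, 19 and 21, set apart by the first principal component, were at 460 to 750 CPM for CREB3L3. The other lived animals were at 127 to 367 CPM. PC, pyruvate carboxylase, was at -0.59 ± 0.25. In the insulin and insulin-like growth factor list 11 of 15 were higher (median 0.37, which was 0.15 to 0.25 when any 1 of animals 2, 7, 8, 13, 16, 18 or 20 was left out), led by FOXO3 (1.17 ± 0.54) and FOXO1 (0.59 ± 0.20), the factors that insulin holds out of the nucleus, and IGF1 was the lowest (-0.25). Glucocorticoid targets had 13 of 14 higher (median 0.43), from GLUL, glutamine synthetase, at 1.02 (0.94 without animal 11, in which it was not counted) to LCN2, an iron-carrier binding protein, at -1.25. In FS animals alone this median was 0.16 and in CPF animals alone 1.10. GLUL was at 56.2 to 78.2 CPM in the lived animals 10, 17, 19 and 21 and at 222 to 581 CPM in the other counted lived animals. Circadian clock genes had 15 of 16 identifiers higher (median 0.49), BHLHE40 among them at 70.4, 129 and 261 CPM in animals 2, 16 and 20 and at 268 and 348 CPM in animals 7 and 8 (lived 29.6 to 187 CPM). PER2 held the highest value (1.202) and BHLHE41 the lowest (-0.06). The sources used here give no clock time for the biopsies.

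Stress lists divided. Of 19 unfolded protein response genes 14 were lower (median -0.31, or -0.17 without animal 2 and -0.19 without animal 19), CRELD2 the most (-1.21 ± 0.52), while ERN1, the sensor that splices XBP1 mRNA, was the highest (0.65 ± 0.27; medians 148 and 87.7 CPM). In FS animals alone the median was -0.53, and in CPF animals alone it was 0.03. ATF4 target genes had 12 of 14 higher (median 0.30, or 0.45 to 0.49 without animal 2, 16 or 19), with VLDLR lowest (-0.82), and PHGDH, the first enzyme of serine synthesis, at medians of 142 and 72.1 CPM. Apoptosis and p53 targets had 12 of 16 higher (median 0.46). Of these GADD45B, a stress sensor, was the highest (1.06) and CASP8 the lowest (-0.43), and PMAIP1, the BH3-only protein NOXA, was at 5.59, 3.98 and 6.81 CPM in animals 2, 16 and 20 and at 7.03 and 7.38 CPM in animals 7 and 8 (lived 1.07 to 5.495 CPM). Heat shock genes had 12 of 17 lower (median -0.23; -0.48 without animal 8 and -0.10 without animal 20), from DNAJB4 (0.18) to HSPB1 (-3.17, near 0 CPM in most animals). Hypoxia-inducible factor targets had 18 of 24 higher with a small median (0.19), from PFKFB3, the glycolytic activator, at 1.35 to P4HA2, a collagen prolyl hydroxylase, at -0.81. For P4HA2 the lived animals 10, 17, 19 and 21 were at 74.0 to 203 CPM and the other lived animals at 17.7 to 39.8 CPM. For CRELD2 animals 17, 19 and 21 were at 209 to 413 CPM and the other lived animals at 38.0 to 121 CPM. For GADD45B the lived animals 10, 17, 19 and 21 were at 2.75 to 61.9 CPM and the other lived animals at 60.5 to 400 CPM. The died animals were at 209 to 553 CPM for GADD45B.

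Lists of general liver and cell functions had medians between -0.19 and 0.19. All 9 moved by over 1.5 times with some 1 animal left out, and the direction turned without animal 2 for the urea cycle (-0.03), without animals 2, 3 or 20 for the cell cycle (0.05 to 0.17) and without animals 10 or 13 for drug metabolism (0.01 to 0.02). The coagulation and fibrinolysis list was at 0.12 (12 of 19 higher), with F3, tissue factor, highest (1.36; 99.7 CPM in animal 7 and at most 33.9 CPM in the other 4) and TFPI, its inhibitor, lowest (-2.41, under 1 CPM at the group medians). Urea cycle and amino acid catabolism was at 0.15 (NAGS 0.77, HAL -0.73), bile acid synthesis and transport at 0.19 (NR0B2 0.81, SLCO2B1 -0.45), and drug and antioxidant metabolism at -0.04 (GSTM3 0.77, CYP1A1 -2.64). CYP1A1 was at 1844 CPM in lived animal 14 and at most 273 CPM in the other lived animals, with medians of 11.9 CPM in died and 22.4 CPM in lived animals. GSTM3 medians, 0.907 CPM in died and 1.61 CPM in lived animals, ran against its estimate. SLCO2B1 was at 208 to 314 CPM in the lived animals 10, 17 and 21 and at 40.0 to 107 CPM in the other counted lived animals. Heme and iron handling was at 0.06 (ALAS1 0.77, STEAP3 -0.47), the respiratory chain at -0.09 (SDHC 0.27, NDUFA8 -0.29), ribosome biogenesis at 0.08 (UTP15 0.52, BYSL -0.21), the proteasome at -0.10 (PSMD12 0.14, PSMA5 -0.30) and the cell cycle at -0.19 (CDC20 0.63, MCM3 -0.52). For ALAS1 the lived animals 10, 17, 19 and 21 were at 158 to 499 CPM and the other lived animals at 409 to 2058 CPM.

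The libraries carried hepatocyte RNA as labelled. ALB, FGG and AHSG were the most abundant hepatocyte markers over the 23 libraries, FGG being lower in the estimate as described above, and the summed hepatocyte list was at 145263 to 193583 CPM in died and 82783 to 246787 CPM in 17 lived animals. CD14, C1QA and MRC1 led the Kupffer and macrophage list (1085 to 1203 CPM in died, 683 to 1559 in lived), and ENG, EGFL7 and PECAM1 the endothelial list (429 to 679 and 337 to 1052 CPM). COL3A1, COL1A2 and TIMP1 led the stellate cell and matrix list (507 to 866 and 465 to 2727 CPM), CLDN4, SPP1 and EPCAM the cholangiocyte list (307 to 868 and 173 to 779 CPM), and HBB, ALAS2 and SLC4A1 the erythroid list (73.4 to 397 and 41.6 to 403 CPM). CCL5, CD4 and NKG7 led the T and NK cell list (55.0 to 119 and 49.97 to 241 CPM). MZB1, CD79B and MS4A1 led the B and plasma cell list, which reached at most 16.1 CPM, and CIDEC and PLIN1 the adipocyte list, which reached at most 17.6 CPM. All 9 tested members of the striated muscle list were lower in the animals that died (median -4.59), 0 with an unadjusted p under 0.05 and 2 without animal 11. Without animal 15 only 3 members remained tested and their median was -0.19. The summed list was at 10.04 to 18.03 CPM (median 12.6) in died animals and reached 199 CPM (median 14.7) in 17 lived animals. In the died animals almost all of it came from DES. The MYH1 median was 0 CPM in both groups, and that of ACTA1 was 0.16 CPM in died and 0.17 CPM in lived animals. For each of these 2 genes, 5 lived animals were above the highest died value. With the striated muscle level as a covariate 0 genes passed.

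**Figure D4:**
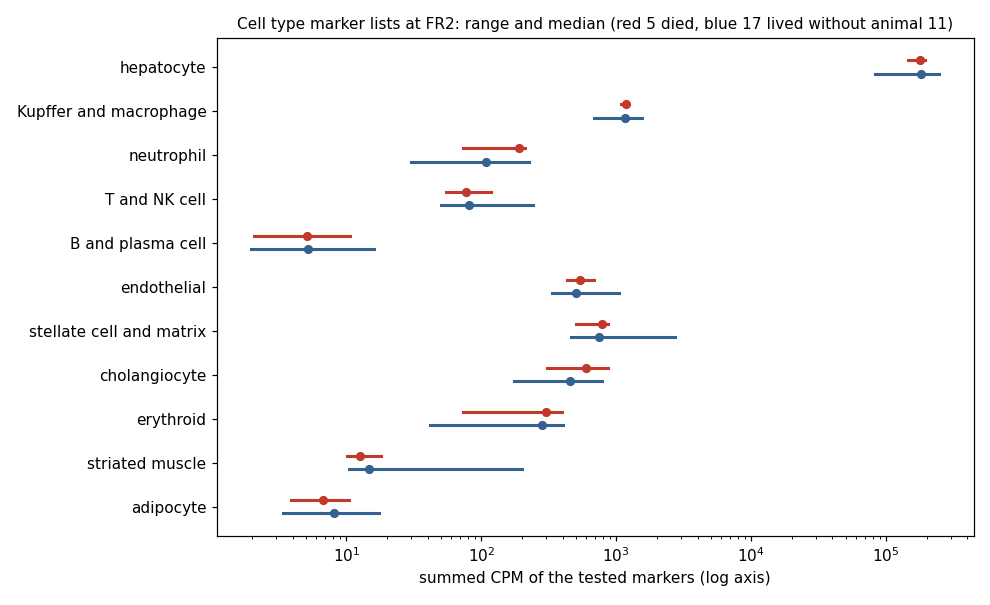
Summed CPM (log axis) of the tested markers of 11 cell type lists at FR2, as range (line) and median (point) for the 5 animals that died (red) and 17 that lived (blue, without animal 11). The ranges overlap in every list. The neutrophil list, in which ARG2 is the most abundant member, has medians of 190 and 108 CPM.

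The difference between the groups was next compared with that at Baseline (B), taken before injury. The change from B to FR2 was compared between 5 died and 15 lived animals with a term for each animal. The 3 lived animals 17, 19 and 21 were left out, since an earlier analysis of these data found skeletal muscle RNA in their Baseline libraries, where 195, 56 and 200 of the 6757 genes above had no count. No gene passed in edgeR's quasi-likelihood test (0 of 12586; smallest adjusted p 1), and 254 genes (2.02%) had an unadjusted p under 0.05. DESeq2 called 0, with RPP25L at an adjusted p of 0.0248 but a difference of 0.67, below the fold threshold. Without animal 11, 0 passed and the smallest adjusted p was 0.999.

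For KLF10, MYC, IER3 and SCD the group medians were already apart at B, and the estimated differences in change were small beside their SE. On a scale over 91 libraries, KLF10 at B was at 155, 203 and 226 CPM in animals 7, 8 and 20, at 43.5 and 29.4 CPM in animals 2 and 16, and at 16.7 to 79.4 CPM (median 34.998) in 15 lived animals. The same 3 died animals were thus above each of these 15 lived animals before injury, and the difference in change was 0.09 ± 0.38 on the log2 scale. The left-out lived animals 17, 19 and 21 were at 254, 435 and 254 CPM for KLF10 at B. MYC at B was at 97.8 to 175 CPM in died and 37.5 to 112 CPM in lived animals, and its difference in change was 0.08 ± 0.32. For IER3 these ranges at B were 36.3 to 98.8 and 6.07 to 77.8 CPM, with a difference in change of 0.02 ± 0.58. SCD at B was at 1803, 1222 and 2778 CPM in animals 7, 8 and 20 and at 253 and 104 CPM in animals 2 and 16, with lived animals at 14.2 to 1635 CPM and a difference in change of 0.13 ± 0.55.

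Other genes were further apart after injury in the estimate, none past the test. PVR had B medians of 1.46 CPM in died and 1.27 CPM in lived animals and FR2 medians of 6.07 and 2.21 CPM, a difference in change of 0.85 ± 0.62. XBP1 went from medians of 184 and 225 CPM at B to 211.4 and 349 CPM at FR2 (-0.56 ± 0.31), and ETV6 from 20.2 and 17.3 CPM to 22.01 and 37.1 CPM (-0.56 ± 0.36). PGM2 differed in change by 0.48 ± 0.24. MARCHF2 was lower at FR2 than at B in every group median (13.6 to 8.99 CPM in died and 17.6 to 13.8 CPM in lived) and differed in change by -0.31 ± 0.21, and MYD88 was higher at FR2 in both (24.4 to 36.9 and 29.3 to 53.3 CPM; -0.14 ± 0.27). LTBR at B was at 54.9 to 60.3 CPM in died and at 62.0 to 126 CPM in 15 lived animals, an observation made after its values were seen. How many of all genes lay apart in this way at B was not counted. Over lists, the median difference in change was 0.11 for immediate early genes, 0.05 for fatty acid synthesis, 0.26 for cholesterol synthesis and -0.42 for acute phase genes, beside 0.00 over all genes. In the acute phase list the difference in change was below 0 for 14 of 15 members, 2 of them at an unadjusted p under 0.05, and none passed the adjusted test.

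**Figure D5:**
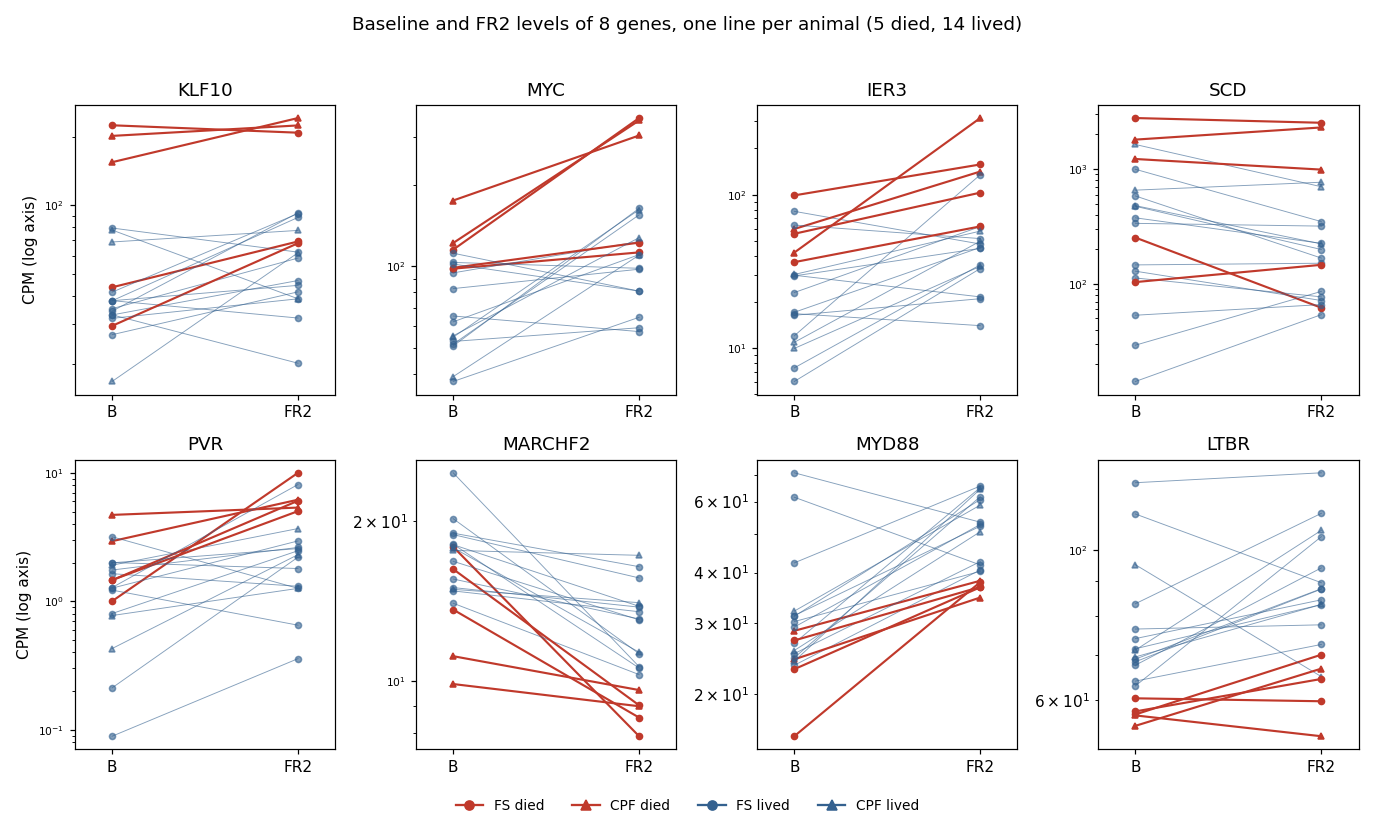
CPM (log axis, 1 scale over 91 libraries) at B and FR2 of 8 genes, 1 line per animal, for 5 died animals (red) and the 14 lived animals other than 11, 17, 19 and 21 (blue). KLF10 and SCD are high in the same 3 died animals at both times.

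Group medians of 4 of these genes were closer together at 8 h and 20 h, which was not tested. KLF10 had medians of 51.4 CPM in died and 40.1 CPM in lived animals at 8 h and 53.5 and 31.4 CPM at 20 h. SCD had 70.3 and 35.9 CPM at 8 h and 45.5 and 44.4 CPM at 20 h. MYD88 had 91.7 and 95.6 CPM at 8 h, and MARCHF2 had 16.5 and 14.9 CPM at 20 h.

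Whether the difference depended on feeding was tested as an interaction of survival and fed status, with 2 against 3 CPF and 3 against 15 FS animals. No gene passed in edgeR's quasi-likelihood test (0 of 11892; smallest adjusted p 1; 413 genes, or 3.47%, at an unadjusted p under 0.05), and DESeq2 called 0. Among the named genes the interaction estimate was 0.88 ± 0.65 for KLF10, 1.10 ± 0.77 for IER3 and -1.21 ± 1.41 for SCD (log2, CPF minus FS). In CPF animals alone, edgeR's quasi-likelihood test called 11 genes, 9 higher and 2 lower in the animals that died, and in FS animals alone it called 0. The higher ones included SIK1, TOB1, PLK3 and CCRN4L, and CRP was 1 of the 2 lower ones (-2.07). These were named after their values were seen. They rest on 2 animals that died. With 0 genes called for the interaction, they are not a result particular to CPF animals.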

How the data were processed

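Liver biopsies of 23 pigs at 4 times gave 92 libraries, of which the 23 at FR2 entered the main comparison. The authors prepared poly(A) libraries, sequenced single reads, and deposited raw counts per pig Ensembl gene: base calls came from CASAVA 1.8.2, reads were aligned to Sscrofa10.2 with TopHat 1.5.0, sorted with SAMtools and counted with HTSeq. The strand setting and overlap mode of the counting are not given in the sources used here, so reads of overlapping, antisense or near-identical genes cannot be told apart. The table held 25322 identifiers, 17068 with a count at FR2, and 12504 were matched to a symbol. No coordinates are given, since the annotation used for names is of another build.

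Genes with a summed CPM of at least 10 over the libraries fitted were tested in edgeR 4.0.16 (R 4.3.3) with TMM scaling, terms for fed status and survival, the robust quasi-likelihood test, 2-sided, and Benjamini-Hochberg adjustment. Called genes had an adjusted p below 0.05 with a log2 fold change of 1 or more in size, the thresholds of the study. The change from B was tested as the interaction of survival and time with a term for each animal, which pairs the libraries because both come from the same animal by title. Replicates are different animals. DESeq2 1.42.0 and limma 3.58.1 were run as alternatives, with other filters, scalings, covariates and subsets of animals. Leaving out animal 11, or animals 10, 11, 17, 19 and 21, was chosen after seeing the data. Fits were tested on simulated data.

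Named were the 10 genes with a symbol and the smallest p in each direction, the highest and lowest member of each list, the 3 most abundant markers of each cell type, and other members beside their list's count. The comparison and the lists were chosen with earlier results of these data known. No 2 FR2 libraries were alike within sampling noise (253 pairs, lowest chi-square per gene 41.9). Figures and summaries were made with Python 3.11.15, pandas 2.3.3 and matplotlib 3.10.9.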

Additional observations from a re-analysis of the deposited data

Results flagged for a closer look

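Among 106 values checked in the 5 animals that died, 11 had 1 animal far from the other 4 by Dixon's criterion (gap over range above 0.71). The criterion flags about 1 in 20 groups by chance where values are normally distributed and picked without regard to their levels. Here CPM were taken without a log, and the genes had been picked by p or fold change in the same animals. Many of these values also share animals and genes. That rate therefore does not apply to the 11. Animal 7 stood apart for B3GNT2 at 38.19 CPM (others 15.73 to 19.89) and for F3 at 99.74 CPM (others 7.686 to 33.86). Animal 8 stood apart for P4HA2 at 35.53 CPM (others 19.04 to 22.34) and for FOXO3 at 26.28 CPM (others 9.848 to 13.02). Animal 20 stood apart for CYP1A1, a xenobiotic-inducible cytochrome P450, at 55.33 CPM (others 2.607 to 15.64).

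Animal 2 accounted for 6 of the 11. PVR was at 9.563 CPM (others 4.793 to 5.894), CREB3L3 at 202.9 CPM (others 112.8 to 137.4) and CASP8 at 6.94 CPM (others 3.173 to 3.707). Its median log2 ratio to the lived animals was -0.2685 for the hepatocyte list (others 0.0836 to 0.1975), -1.532 for the erythroid list (others -0.019 to 0.4697) and -0.3671 for the coagulation and fibrinolysis list (others 0.0836 to 0.171).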

How the results depend on the processing

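The count of genes called at FR2 was 0 in edgeR's quasi-likelihood test and became 3 with DESeq2, 9 with the likelihood ratio test, 19 with limma voom and 11 in CPF animals alone (2 against 3). It stayed at 0 under the other alternatives run and with each of the 23 animals left out, where the number of genes at an unadjusted p under 0.05 ran from 447 to 782. With limma voom that number was 1395, of which 816 were higher and 579 lower, against 313 and 342 of 655. The change from B and the interaction with fed status had 0 calls under every alternative run; with no replicate block, that is without the pairing by animal, the change had 0 calls and 151 genes at an unadjusted p under 0.05 against 254. In each case the cause was not tested.

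Several differences turned direction (log2). Some of them were near 0 in the main fit, such as HPX at -0.01. Others were not, such as GSTM3 at 0.77, MCM3 at -0.52 and SLCO2B1 at -0.45. With limma voom the turned values were HPX 0.0089, GSTM3 -0.0188, DHCR7 -0.0738 and BHLHE41 0.1355. With no fed term they were HPX 0.0282 and IGF1 0.2814. The library total as covariate gave HPX 0.2868, and the muscle level as covariate gave DHCR7 -0.0312. In FS animals they were JUNB -0.1611, HPX 0.0380, GSTM3 -0.1882, DGAT1 0.0024 and DNAJB4 -0.6389. In CPF animals they were SLCO2B1 0.1576, DHCR7 -0.2430, MCM3 0.4354, IGF1 0.2290 and PSMD12 -0.3417. Without animals 10, 11, 17, 19 and 21 they were DHCR7 -0.0933 and BHLHE41 0.3405. With each animal left out in turn, the ranges crossing 0 were -0.6914 to 0.2422 for BHLHE41, -0.1667 to 0.0246 for DGAT1, -0.2673 to 0.1458 for DHCR7, -0.2007 to 0.5831 for DNAJB4, -0.0566 to 1.2999 for GSTM3, -0.1127 to 0.0215 for HPX, -0.8055 to 0.0979 for IGF1 and -0.0981 to 1.8018 for PPP1R3C. For the change from B, all 23 animals gave SCD -0.0092 and ANKRD46 0.0480, no replicate block gave KLF10 -0.1118 and ANKRD46 0.0443, and leaving out animal 11 gave TARS2 0.0011. With each died animal left out, the change ran from -0.1174 to 0.0182 for ANKRD46, -0.2898 to 0.1362 for B3GNT2, -0.2411 to 0.1610 for IER3, -0.0952 to 0.2942 for KLF10, -0.2291 to 0.2196 for MYC, -0.1116 to 0.6064 for SCD, -0.1835 to 0.0053 for SYMPK and -0.1145 to 0.0557 for TARS2.

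With 5 animals that died and a median SE of 0.306 on the log2 scale, small differences were not detectable. Large estimates did not pass either, such as SCD at 2.41 (adjusted p = 0.402, edgeR) and UNC5D at 1.81 (adjusted p = 0.399, edgeR). The absence of calls therefore does not show that large differences were absent.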
